A study of Mus musculus with 3 samples.

Results

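Messenger RNA of 6 Serpina genes, Serpina1a, Serpina1b, Serpina1c, Serpina1d, Serpina1e and Serpina3n, was followed in the mural cells of 3 mouse pancreatic tumours. The genes were listed by symbol, as 6 of the 62 serpin genes and of the 28692 genes in the count matrix. They had been selected on measured values: earlier results of these data showed Serpina1 messages to be high in cells with pericyte genes, so the levels by cell class are described here and not tested. Mural cells were 622 of 18990 kept cells, gated as cells with at least 1 unique molecular identifier (UMI, the tag that counts a captured mRNA molecule once) of Rgs5 and of Higd1b and none of Epcam. Rgs5, a regulator of G-protein signalling, and Higd1b, a mitochondrial protein, are used as pericyte markers, and Epcam is an epithelial adhesion molecule.

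Serpins are protease inhibitors that trap their target enzyme by a change of shape that destroys both proteins. Alpha-1-antitrypsin, the product of the human SERPINA1 gene, is made mainly by hepatocytes and restrains neutrophil elastase, and mice carry a cluster of near-identical copies of its gene. Serpina3n is a mouse relative of alpha-1-antichymotrypsin and an acute phase gene that inhibits granzyme B. Mural cells, the pericytes and smooth muscle cells of the vessel wall, sit around the endothelium and carry contractile and matrix genes.

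The tumours came from the strain labelled KPf/fC, a name used by convention for an engineered mouse model in which a Cre active in the pancreas gives rise to tumours, with a floxed Trp53 allele. The labels do not spell out the alleles, the driver of the Cre or the age, name no treatment, and do not say whether each tumour came from its own animal. All 3 tumours therefore form 1 group, and the spread over tumours is the only replicate error here. A sort against CD45, CD31 and PDGFRa, surface proteins of leukocytes, endothelial cells and many fibroblasts, came before droplet capture with 10x 3' chemistry (version 2). The sort sets the share of each class, so cell numbers here do not give the make-up of a tumour. The matrix held 5874, 6087 and 7615 barcodes with 60801677, 67262634 and 53162622 UMIs for tumours 1, 2 and 3. Between 50 and 65 barcodes were shared by each pair of tumours, and 1 to 7 of these belonged to mural cells.

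The promoters of the Serpina1 copies are shown because the 5 genes are near copies of each other and yet only Serpina1b and Serpina1d gave more than a handful of molecules in mural cells. The windows are those of RefSeq (GRCm38.p6), from 250 bases before to 50 bases after the annotated start, written 5′ to 3′ on the strand of the gene. Serpina1b (chr12:103738140-103738439), Serpina1d (chr12:103773584-103773883) and Serpina1a (chr12:103863570-103863869) lie on the minus strand and Serpina3n (chr12:104406458-104406757) on the plus strand of chromosome 12. Capitals mark the longest stretch that all 5 Serpina1 windows share letter for letter.
Serpina1b: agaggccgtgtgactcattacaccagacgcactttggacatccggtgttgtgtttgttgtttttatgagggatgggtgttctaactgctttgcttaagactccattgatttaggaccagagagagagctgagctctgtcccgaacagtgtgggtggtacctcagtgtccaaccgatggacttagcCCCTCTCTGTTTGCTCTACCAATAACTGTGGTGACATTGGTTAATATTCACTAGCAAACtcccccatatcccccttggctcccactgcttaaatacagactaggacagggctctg
Serpina1d: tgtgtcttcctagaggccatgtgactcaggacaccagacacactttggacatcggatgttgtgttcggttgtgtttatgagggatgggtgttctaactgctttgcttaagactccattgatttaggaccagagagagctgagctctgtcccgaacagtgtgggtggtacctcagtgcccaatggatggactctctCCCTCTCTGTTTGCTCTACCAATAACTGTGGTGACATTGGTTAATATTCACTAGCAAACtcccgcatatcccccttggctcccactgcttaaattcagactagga
Serpina1a: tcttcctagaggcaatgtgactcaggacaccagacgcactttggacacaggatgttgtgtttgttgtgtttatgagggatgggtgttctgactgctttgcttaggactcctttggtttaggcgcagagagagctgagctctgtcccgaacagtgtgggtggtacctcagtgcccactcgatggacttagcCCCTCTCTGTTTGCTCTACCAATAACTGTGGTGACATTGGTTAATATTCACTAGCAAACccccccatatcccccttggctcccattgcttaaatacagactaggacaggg
Serpina3n: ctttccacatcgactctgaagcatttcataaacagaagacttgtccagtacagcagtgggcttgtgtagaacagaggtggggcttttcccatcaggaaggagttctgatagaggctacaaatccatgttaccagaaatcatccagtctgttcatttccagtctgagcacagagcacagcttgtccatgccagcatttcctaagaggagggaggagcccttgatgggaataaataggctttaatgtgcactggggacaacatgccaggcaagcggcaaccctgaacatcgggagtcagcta

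The shared stretch was 59 bases long. Of 32851 RefSeq mouse windows of the same length, searched on both strands, 5 held it, and these were the windows of Serpina1a to Serpina1e. Over their aligned bases the 5 Serpina1 windows were 91.7% to 98.4% identical to each other. The letters TTCNNNGAA, the core of STAT binding sites, were in 8.3% of all windows on either strand, and the CArG box, bound by the smooth muscle regulator SRF, in 1.63%. Neither was in any of the 6 windows. The matches and their absence describe letters in a window and say nothing of which factor binds there.

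In the order of the reference annotation Serpina1b, Serpina1d, Serpina1a, Serpina1c and Serpina1e are consecutive genes, next to Serpina1f. Serpina3n lies at the other end of the same cluster, beside Gsc. Because the assay counts the 3' end of an mRNA, how well the copies can be told apart depends on their last bases. Over the last 500 bases the 5 Serpina1 transcripts were 94.2% to 96.4% identical. Of the 401 windows of 100 bases in that stretch, 98.8% were found in no other Serpina1 or Serpina3 transcript for Serpina1b and 97.3% for Serpina1d. The corresponding share was 91.8% for Serpina1a, 90.3% for Serpina1c and 100% for Serpina1e and Serpina3n. The sources used here do not give how reads that fit several copies were counted, so the split of molecules between copies is uncertain, and the sum over Serpina1a to Serpina1e is given beside it.

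The mural gate drew cells with pericyte genes. All 12 pericyte marker genes, none of them used by the gate, were seen in the mural cells of each tumour, at a summed level of 3554 to 3900 CPM (a gene's UMIs as a share of all UMIs of the summed cells, scaled to 1000000). Smooth muscle marker genes were present as well, at 4760 to 8653 CPM in all. There were 223, 135 and 264 mural cells, with a median of 5194, 5381 and 3409 UMIs per cell. Of these, 51, 21 and 40 also met the fibroblast gate and were kept as mural.

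Alpha-1-antitrypsin mRNA in mural cells came almost wholly from Serpina1b and Serpina1d, and its level differed widely between tumours. Serpina1b reached 14.6 CPM in tumour 1 (20 UMIs), 343 CPM in tumour 2 (279 UMIs) and 685 CPM in tumour 3 (716 UMIs). Its mean was 347.6 ± 335 CPM (SD, n = 3), and 179 CPM over tumours 1 and 2 alone. Tumour 1 was thus far below the other two.

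Serpina1d followed the same order of tumours. Its level was 10.2, 70.1 and 240 CPM in tumours 1, 2 and 3, from 14, 57 and 251 UMIs, with a mean of 106.8 ± 119 CPM (SD, n = 3) that was 40.2 CPM without tumour 3. Serpina1d was below Serpina1b in every tumour, although in tumour 1 the counting intervals overlapped.

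Serpina1a, Serpina1c and Serpina1e gave few molecules in mural cells, so that their listing as mural genes rests on a handful of UMIs. Serpina1a had 0, 1 and 5 UMIs in tumours 1 to 3. Serpina1c had 0, 2 and 3 UMIs. Serpina1e had 1, 0 and 2 UMIs. Each was also at no more than 8 UMIs in the fibroblasts or the epithelial cells of any tumour, and each was at 0 in the endothelial cells. As levels, which allow for the smaller mural sums, Serpina1a had a mean of 2.00 ± 2.48 CPM (SD, n = 3) in mural cells, 0.210 CPM in fibroblasts and 0.0826 CPM in epithelial cells. In tumour 3 the mural level of Serpina1a was 7.58 times that of fibroblasts (exact 95% counting interval 1.95 to 26.3), and that of Serpina1c was 18.4 times that of epithelial cells (2.69 to 109). Both are orders of classes within 1 tumour, and tumours 1 and 2 were at or under 3 UMIs in mural cells for each of these genes. No order of the 3 genes can be read.

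As a share of all Serpina1 UMIs in mural cells, Serpina1b held 57.1% of 35 UMIs in tumour 1 (exact 95% interval 39.4% to 73.7%). It held 82.3% of 339 UMIs in tumour 2 (77.8% to 86.2%) and 73.3% of 977 UMIs in tumour 3 (70.4% to 76.0%). Serpina1d held 40%, 16.8% and 25.7%. The intervals of tumours 2 and 3 do not overlap for Serpina1b, so the ratio of the copies differed between those libraries by more than counting error. Intervals here cover counting error only.

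In fibroblasts Serpina1b and Serpina1d also led in tumours 2 and 3, while in tumour 1 the 4 Serpina1 UMIs were 3 of Serpina1b and 1 of Serpina1c. In tumour 3 fibroblasts Serpina1b held 71.2% of 226 Serpina1 UMIs (64.9% to 77.0%) and Serpina1d 23.5%. These shares overlap those of the mural cells of the same tumour. Epithelial cells of tumour 1 had 22 Serpina1 UMIs, of which 11 were Serpina1b, 7 were Serpina1c and 1 was Serpina1d.

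**Figure D1:**
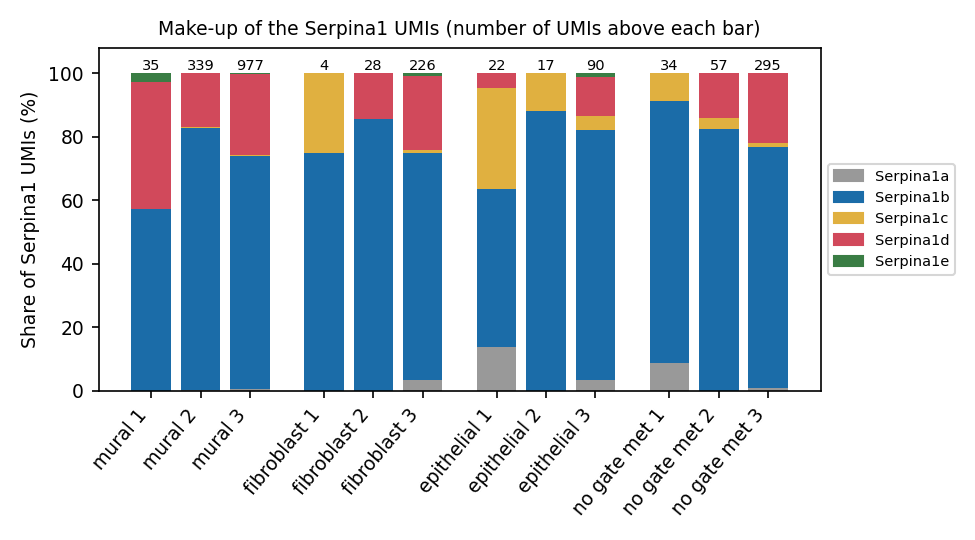
Share of the Serpina1 UMIs (vertical axis, percent) assigned to each of the 5 copies, by cell gate and tumour (horizontal axis, tumour number after the gate). The number above each bar is the number of Serpina1 UMIs it rests on, such as 35, 339 and 977 in mural cells. Serpina1b and Serpina1d fill nearly the whole of the mural bars.

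Mural cells stood above the other classes in all 3 tumours, by a factor that differed between tumours. Serpina1b was at 0.166, 1.07 and 12.7 CPM in the fibroblasts of tumours 1, 2 and 3, a gate of Dcn (decorin) and Col3a1 (a collagen chain). It was at 0.479, 0.988 and 2.77 CPM in epithelial cells, gated by Epcam and Cdh1 (E-cadherin). No fibroblast or epithelial value reached the lowest mural value of 14.6 CPM.

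Within a tumour, the mural level of Serpina1b was 87.8 times that of fibroblasts in tumour 1 (exact 95% counting interval 26.0 to 461), where fibroblasts had 3 UMIs. The ratio was 321 (212 to 510) in tumour 2 and 53.9 (45.4 to 64.4) in tumour 3. Tumour 2 thus had a larger ratio than tumour 3 although its mural level was lower. Against epithelial cells the ratios were 30.5, 347 and 247.

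Serpina1d was seen in fibroblasts at 0, 4 and 53 UMIs, or 0, 0.178 and 4.18 CPM, and in epithelial cells at 1, 0 and 11 UMIs. Against a floor of 3 UMIs per library, mural cells of tumour 1 were at least 61.4-fold higher than fibroblasts. The ratio was 394 in tumour 2 (lower bound of the counting interval 146) and 57.4 in tumour 3 (42.6 to 78.8).

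Endothelial cells, gated by Pecam1 and Cdh5, were few after the CD31 sort, at 186, 15 and 57 cells. Serpina1b had 1, 2 and 0 UMIs there and Serpina1d had none. The 2 UMIs in the 15 endothelial cells of tumour 2 amount to 20.5 CPM, which lies above the mural level of tumour 1. In tumour 3 the mural level of Serpina1b was at least 47.1-fold higher than in endothelial cells, and that of Serpina1d at least 16.5-fold higher.

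In edgeR's quasi-likelihood fit with the tumour as a block, the log2 fold change of mural cells over fibroblasts was 6.70 ± 0.49 (SE, 3 tumours) for Serpina1b and 6.64 ± 0.49 for Serpina1d. Over epithelial cells it was 7.54 ± 0.46 and 9.11 ± 0.38. These values are given with no test, because the genes were chosen for this pattern. The background of the same fits was wide: 17.1% of 12203 genes differed between mural cells and fibroblasts at an adjusted p under 0.05. The share was 42.5% of 12620 genes against epithelial cells and 18.8% of 8641 genes against endothelial cells, which used tumours 1 and 3. The 3 low copies did not pass the filter on low counts in any of these fits.

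**Figure D2:**
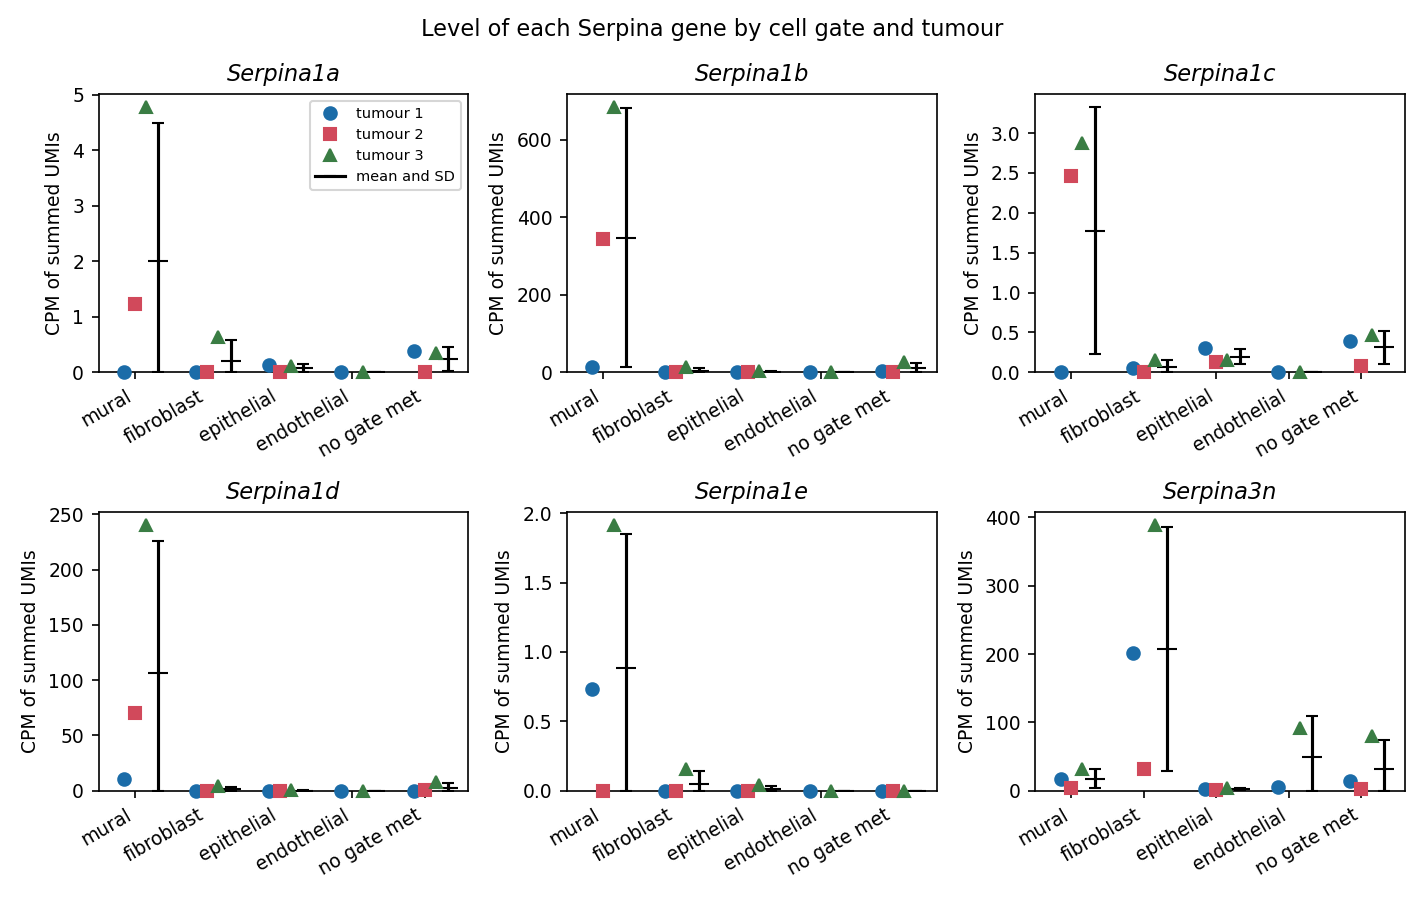
Level of each gene (vertical axis, CPM of summed UMIs, own scale per panel) in cells of each gate and in cells that met no gate, with a point per tumour and the mean ± SD beside it, the SD drawn no lower than 0. Endothelial cells of tumour 2 are left out because there were 15. Serpina1b and Serpina1d are highest in mural cells, Serpina3n in fibroblasts.

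The share of cells with a Serpina1b UMI gave the same order of classes. It was 3.59% of mural cells in tumour 1 (exact 95% interval 1.56% to 6.95%), 60.7% in tumour 2 (52.0% to 69.0%) and 65.5% in tumour 3 (59.5% to 71.2%). Tumours 2 and 3 overlapped and tumour 1 stood far below. In epithelial cells the share was 0.312%, 0.605% and 1.24%, at a higher median depth of 10622.5, 8961 and 7743 UMIs per cell. Fibroblasts had 0.146%, 0.661% and 2.40%. Epithelial cells with Rgs5 or Higd1b held 95.45%, 70.6% and 53.3% of the epithelial Serpina1 UMIs in tumours 1, 2 and 3. How far free RNA in the droplets enters the epithelial share was not tested.

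With each cell thinned to 3000 UMIs, the mural shares were 1.35%, 48.9% and 60.2% and those of epithelial cells 0.104%, 0.134% and 0.483%. Thinning left out 103 of the 264 mural cells of tumour 3 and none in tumours 1 and 2.

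**Figure D3:**
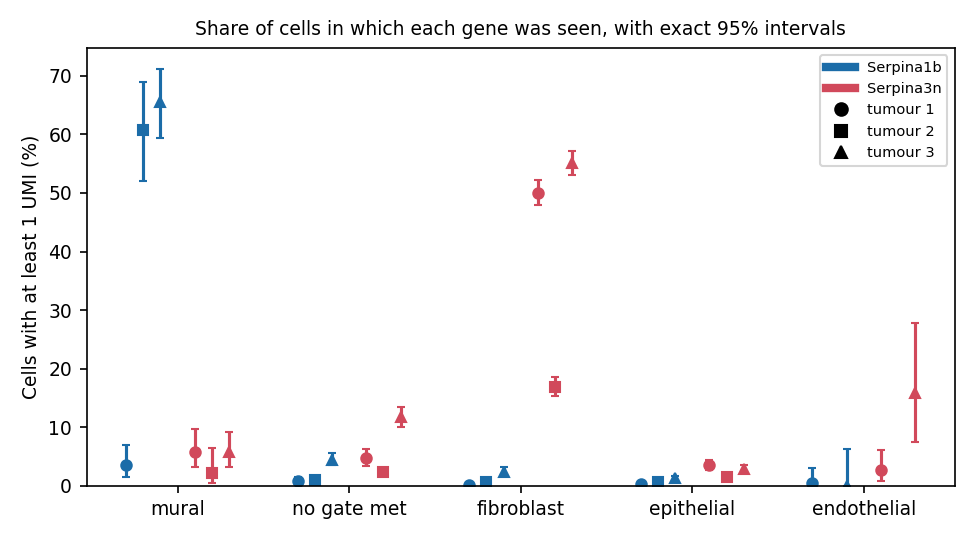
Share of cells with at least 1 UMI (vertical axis, percent) of Serpina1b (blue) or Serpina3n (red) by gate, with a marker per tumour and exact 95% binomial intervals. Serpina1b was seen in 60.7% and 65.5% of the mural cells of tumours 2 and 3, and Serpina3n in 50.05%, 16.9% and 55.2% of fibroblasts.

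Among mural cells the Serpina1 UMIs were spread over many cells in tumours 2 and 3 and sat in few in tumour 1. A mural cell had a median of 0, 1 and 2 Serpina1 UMIs in tumours 1, 2 and 3, and at most 11, 13 and 29. Cells with 5 or more were 1 in tumour 1, 28 in tumour 2 and 82 in tumour 3. Serpina1d was seen in 63.6% of the tumour 3 mural cells that had Serpina1b and in 2.20% of those without it. The same shares were 45.1% and 5.66% in tumour 2. In tumour 1 they were 25% of 8 cells and 4.19% of the others. The median depth of cells with Serpina1b against those without was 6136 against 5167 UMIs in tumour 1, 5234 against 5775 UMIs in tumour 2 and 3240 against 3777 UMIs in tumour 3. Cells with Serpina1d mostly had Serpina1b too in tumours 2 and 3, at 37 of 40 and 110 of 112 cells, but at 2 of 11 in tumour 1. How far reads shared between the copies enter this was not tested.

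Outside the mural gate, cells with Rgs5 or Higd1b more often had a Serpina1 UMI than cells with neither in most groups and tumours. Among cells that met no gate, 24.0% of those with Rgs5 or Higd1b had a Serpina1 UMI in tumour 3, against 1.58% of those with neither, and they held 91.9% of that group's Serpina1 UMIs. In tumour 2 the shares were 8.65% and 0.445%, and in tumour 1 they were 1.59% and 0.510%. In fibroblasts of tumour 3, 14.4% of cells with either gene and 2.14% of cells with neither had a Serpina1 UMI, although the cells with neither, being many more, held 61.1% of the 226 UMIs. In tumour 1 fibroblasts all 4 Serpina1 UMIs were in cells with neither. Of all Serpina1b UMIs, mural cells held 30.8%, 76.0% and 60.2% in tumours 1, 2 and 3, although they were 3.89%, 2.26% and 3.62% of kept cells. In tumour 1 the cells that met no gate held more than the mural cells, 43.1% of the Serpina1b UMIs.

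Genes that mark hepatocytes, the main source of alpha-1-antitrypsin in the body, were largely missing from mural cells. Of 10 hepatocyte markers, Alb (albumin), Ahsg, Fga, Fgb and Apoh were at 0 UMIs in the mural cells of each tumour, and the list summed to 25.8 to 181 CPM. Hp (haptoglobin) gave 146 of the 181 CPM in tumour 3. The tumour 1 mural cells, lowest in Serpina1, carried acinar enzyme genes at 2036 CPM in all, led by Ctrb1 (chymotrypsinogen) at 975 CPM, against 29.5 and 78.4 CPM in tumours 2 and 3. Epithelial markers were at 873, 288 and 242 CPM in the mural cells of tumours 1, 2 and 3. The part of this in the low Serpina1 level of tumour 1 was not tested.

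The transcription factors known to drive the human antitrypsin gene in liver were also sparse. Of 9 listed regulators, 3 passed the low-count filter against fibroblasts and none was called, where 17.1% of all genes were called. Against epithelial cells 8 were tested and 7 were lower in mural cells, where 42.5% of all genes were called in either direction (2986 of 12620 lower), by the quasi-likelihood test of edgeR, Benjamini-Hochberg adjusted. They included Foxa1 (fell by 4.85 ± 0.78 on the log2 scale), Hnf4a (fell by 4.60 ± 0.46) and Foxa3 (fell by 4.66 ± 0.50), each in 3 of 3 tumours.

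Serpina3n was not a mural gene in these tumours: its level was highest in fibroblasts. It was at 202, 32.4 and 388 CPM in fibroblasts of tumours 1, 2 and 3, a mean of 207.5 ± 178 CPM (SD, n = 3). Mural cells had 17.5, 3.69 and 31.6 CPM, from 24, 3 and 33 UMIs. The lowest fibroblast value lay just above the highest mural value, and within each tumour fibroblasts were 8.78 to 12.3 times as high. The fitted log2 fold change of mural cells over fibroblasts was -3.58 ± 0.22 (SE, 3 tumours), given with no test.

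In tumour 1 most of the mural Serpina3n sat in cells that also met the fibroblast gate, and in tumours 2 and 3 it did not. In tumour 1 those 51 cells held 22 of 24 UMIs, at 53.8 CPM against 2.08 CPM in the other mural cells. In tumour 2 the levels were 7.92 and 2.91 CPM, from 1 and 2 UMIs. In tumour 3 they were 37.7 and 30 CPM, with 8 of 33 UMIs in the cells of the fibroblast gate. Serpina1b went the other way and was lower in the cells with the fibroblast gate, at 2.44 against 19.8 CPM in tumour 1, 174 against 374 CPM in tumour 2 and 475 against 738 CPM in tumour 3. Epithelial cells had 3.26, 1.52 and 3.94 CPM of Serpina3n, against 2.08, 2.91 and 30 CPM in mural cells outside the fibroblast gate. The first and second of these rest on 2 UMIs each, so only tumour 3, from 25 UMIs, can be read as above the epithelial level. Endothelial cells of tumour 3 had 92.2 CPM, from 19 UMIs, and those of tumour 1 had 5.58 CPM. Serpina3n was seen together with a Serpina1 UMI in 0 of 13, 3 of 3 and 10 of 15 mural cells that had it. Of the mural cells outside the fibroblast gate, 8.14%, 64.9% and 67.9% had a Serpina1 UMI in tumours 1, 2 and 3. Inside that gate the shares were 7.84%, 52.4% and 57.5%. No link between the genes can be read from so few cells beside these shares.

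Splitting mural cells by Mmp9, the gelatinase gene, separated the Serpina1 levels. There were 30, 18 and 9 mural cells with Mmp9 and 193, 117 and 255 without. Serpina1b was at 0, 90.0 and 64.4 CPM in the cells with Mmp9 of tumours 1, 2 and 3, from 0, 12 and 3 UMIs. It was at 16.9, 393 and 714 CPM in the cells without it, from 20, 267 and 713 UMIs. In tumours 2 and 3 the cells with Mmp9 were lower, and across tumours the ranges overlapped, since tumour 1 was low on both sides.

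The ratio of cells without to cells with Mmp9 was 4.37 in tumour 2 (exact 95% counting interval 2.46 to 8.57) and 11.1 in tumour 3 (3.78 to 53.9). In tumour 1 the floor of 3 UMIs was 15.9 CPM, close to the 16.9 CPM of the other side, so that no difference was detectable at that depth. The log2 fold change of cells with Mmp9 over cells without was -2.65 ± 0.32 (SE), with the same sign in 3 of 3 tumours, tumour 1 by a value of 0 under its floor, and adjusted p = 0.000135 by the quasi-likelihood test of edgeR, Benjamini-Hochberg adjusted over 5011 genes. In that test 128 genes were called, 2.55% of those tested, 51 higher and 77 lower in cells with Mmp9. The test uses sums of as few as 9 cells, under the planned minimum of 20, which tumour 1 alone met. Without the tumour as a block the fold was -3.13 with adjusted p = 0.637 by the same edgeR test, so the call rests on comparing sums within tumours. Under the other alternatives run, adjusted p by edgeR or DESeq2 was 4.86e-13 to 0.00246. Since the split itself was part of how these genes were proposed, the test is not independent support.

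Serpina1b alone of the 6 genes passed the low-count filter in that split. Serpina1d was at 0, 7.50 and 0 CPM in the cells with Mmp9, from 0, 1 and 0 UMIs, and at 11.9, 82.5 and 251 CPM in those without. In tumour 3 it was at least 3.90-fold higher without Mmp9, and in tumour 1 no difference was detectable. Serpina3n had 2, 0 and 0 UMIs in the cells with Mmp9.

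Cells with Mmp9 also carried other genes at different levels. The 5 highest genes that passed the test in 3 of 3 tumours were the protease gene Mmp10 (log2 fold change 3.92), the co-stimulatory receptor gene Cd40 (2.81), the collagen gene Col10a1 (2.60) and the monocyte chemokine genes Ccl7 (2.54) and Ccl2 (2.39). Ccl2 was at 669, 1132 and 623 CPM with Mmp9 and at 160, 190 and 80.1 CPM without, and these ranges did not overlap. The 5 lowest were the caveolae genes Cav2 and Cav1, the smooth muscle actin nucleator Lmod1, Cyp4b1 and the vessel ligand gene Angpt2. Cyp4b1 was at 10.6, 7.50 and 0 CPM with Mmp9 and at 158, 110 and 188 CPM without. Cav2 had no UMI in the cells with Mmp9 of any tumour and was at 40.7, 45.6 and 30.03 CPM in those without. In tumour 3 the floor of 3 UMIs was 64.4 CPM with Mmp9, so no difference in Cav2 was detectable there. With Mmp9, Cav1 was at 5.31, 0 and 0 CPM, and Lmod1 and Angpt2 were each at 0, 0 and 21.5 CPM. The calls of the 5 lowest genes thus rest on few UMIs in the cells with Mmp9.

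Of all 5011 genes tested in the Mmp9 split, 2.55% were called, 51 higher and 77 lower with Mmp9. By the same edgeR test, smooth muscle markers were lower with Mmp9 in 5 of 7 tested, with a list median of -1.24 against -0.03 over all genes. They were Acta2 (-1.24), Tagln (-0.98), Actg2 (-1.43), Mylk (-1.24) and Lmod1. Tagln had that sign in 2 of 3 tumours, and in tumour 3 it was at 1825 CPM with Mmp9 and 1470 CPM without. Of 11 pericyte markers tested, 4 were lower (Vtn, Cox4i2, Notch3 and Ndufa4l2) and Cspg4 was higher, with a median of -0.24. Of 13 tested genes of the acute phase and of STAT3 or glucocorticoid response, 3 were lower, Steap4 (-2.81), the cytokine receptor subunit Il6st (-1.25) and the transcription factor Cebpb (-1.12), and none was higher. The median of that list was -0.66. Of the acinar genes tested, Ctrb1 was lower (-1.94), and of the epithelial ones Tff1 (-2.20), each with that sign in 2 of 3 tumours. No neutrophil marker had a UMI in the cells with Mmp9, and the macrophage markers gave 3, 0 and 1 UMIs.

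Splitting the same cells by Myh11, the smooth muscle myosin heavy chain, gave no difference in Serpina1 levels that held across tumours. There were 48, 42 and 50 mural cells with Myh11. Serpina1b was at 0, 411 and 597 CPM in these and at 18.6, 313 and 707 CPM in the cells without it. The ratio of cells with to cells without Myh11 was 1.31 in tumour 2 (exact 95% counting interval 1.02 to 1.68) and 0.845 in tumour 3 (0.690 to 1.03), and in tumour 1, with 0 against 20 UMIs, it was 0 (upper limit 0.751). The intervals of tumours 1 and 2 exclude 1, in opposite directions, but they treat the UMIs of 1 cell as independent. In tumour 1 the Serpina1 UMIs sat in few mural cells, with up to 11 in 1 cell, so no direction can be read there. The ratios of tumours 2 and 3 lay on opposite sides of 1, and the interval of tumour 3 includes 1.

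The fitted log2 fold change was -0.03 ± 0.22 for Serpina1b (adjusted p = 0.987, quasi-likelihood test of edgeR, Benjamini-Hochberg adjusted) and turned positive when tumour 1 or tumour 3 was left out or cells were thinned. Serpina1d was at 10.3, 72.6 and 212 CPM with Myh11 and at 10.2, 69.1 and 247 CPM without. Its log2 fold change was -0.09 ± 0.22 (adjusted p = 0.926 by the same edgeR test), and the ratio within tumours lay between 0.857 and 1.05. In that split 160 of 5158 genes were called, 3.1%, with 99 higher and 61 lower in cells with Myh11. Whether the Mmp9 and Myh11 splits differ in their effect on Serpina1b was not tested. The 2 splits are not separate views of the cells: of 57 mural cells with Mmp9, 56 had no Myh11 and 1 had it. Among mural cells without Mmp9, the mean of Serpina1b was 338.5 ± 306 CPM (SD, n = 3) with Myh11. It was 382 ± 361 CPM (SD, n = 3) in those with neither gene.

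**Figure D4:**
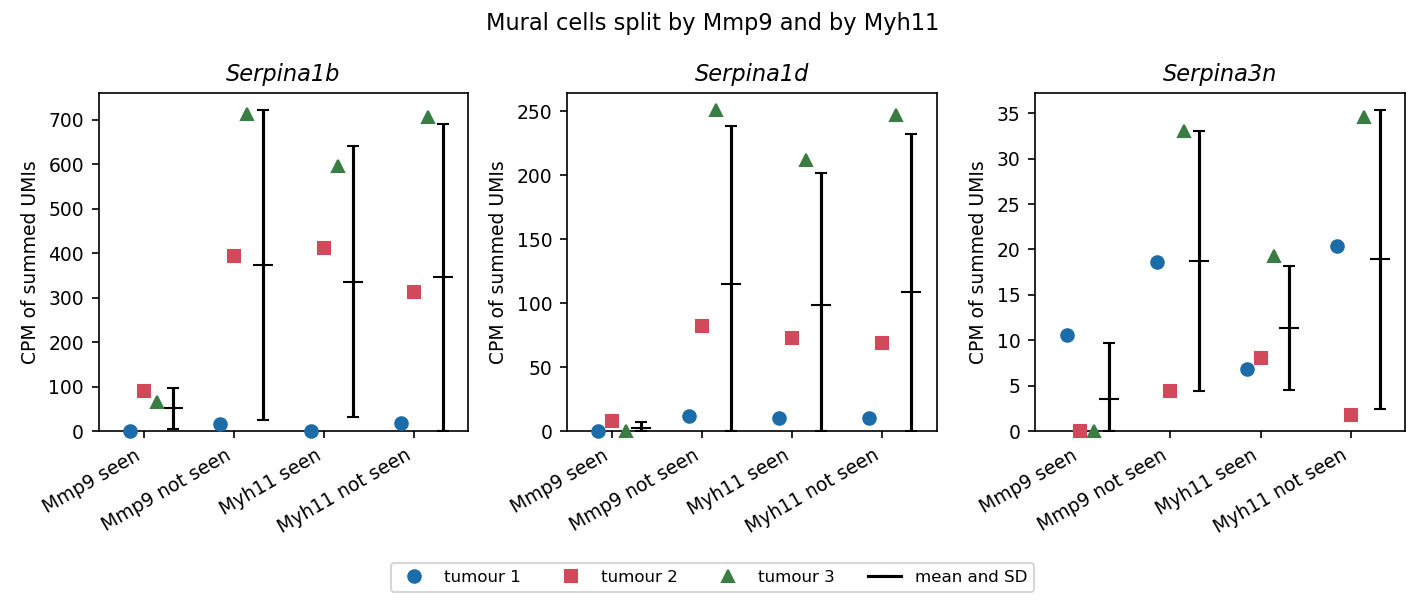
Level of Serpina1b, Serpina1d and Serpina3n (vertical axis, CPM of summed UMIs, own scale per panel) in mural cells with and without Mmp9 and with and without Myh11, with a point per tumour and the mean ± SD beside it, the SD drawn no lower than 0. Cells with Mmp9 were 30, 18 and 9 in tumours 1, 2 and 3. Serpina1b was lower with Mmp9 in tumours 2 and 3, and its order with and without Myh11 differed between tumours.

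The Myh11 split did separate contractile genes. Of all 5158 genes tested there, 3.1% were called, 99 higher and 61 lower with Myh11. By the quasi-likelihood test of edgeR, Benjamini-Hochberg adjusted, 5 of 8 tested smooth muscle markers were higher with Myh11 and none was lower, with a list median of 1.25 against 0.00 over all genes. They were Acta2 (1.49), Tagln (1.69), Lmod1 (2.22), Actg2 (1.29) and Mylk (1.01). The 5 highest genes overall were Nrip2, the matrix proteoglycan gene Prelp, Crispld2, Lmod1 and Cav1. The 5 lowest were the growth factor gene Ptn, Col10a1, Mmp10, the adhesion gene Ncam1 and the phosphate transporter gene Slc20a1. Prelp was at 65.4, 80.7 and 38.5 CPM with Myh11 and at 10.2, 3.54 and 8.35 CPM without. Of the hepatocyte genes only Hp was tested, and it was lower with Myh11 (-2.04). The acinar gene Ctrb1 was lower as well (-2.34).

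The other serpins differed widely in their mural levels. Of the 56 other serpin genes, 43 had a UMI in any kept cell. The highest mean level in mural cells among the other Serpina genes was 13.95 CPM, that of Serpina3g. Against fibroblasts 17 were tested, and by the same edgeR test 2 were higher in mural cells and 4 lower. Of all 12203 genes tested there, 17.1% were called, 911 higher and 1177 lower. The 2 higher were Serpine2, which encodes the thrombin inhibitor protease nexin, at a log2 fold change of 2.15 ± 0.17, and Serpini1, which encodes the tissue plasminogen activator inhibitor neuroserpin, at 3.11 ± 0.45. Serpine2 was the most abundant serpin message of mural cells, at 1525 ± 191 CPM (SD, n = 3) against 333.8 ± 101.4 CPM in fibroblasts. The 4 lower were Serpinf1, Serpinb9b, Serpinb1a and Serpina3m. In the mural cells of tumours 1, 2 and 3 Serpinb9b was at 0.731, 0 and 0 CPM and Serpina3m at 0, 0 and 5.74 CPM. The calls of these 2 genes thus rest on few mural UMIs. Serpinf1, which encodes the pigment epithelium-derived factor, was at 90.1 ± 15.9 CPM in mural cells and 649.7 ± 98.0 CPM in fibroblasts.

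Serpine2 moved opposite to Serpina1b in the Mmp9 split, where it was higher with Mmp9 by 1.42 ± 0.09 on the log2 scale (adjusted p = 2.72e-07 by the quasi-likelihood test of edgeR, Benjamini-Hochberg adjusted, 3 of 3 tumours). Serpinf1 was higher too (1.04 ± 0.26) and Serping1, the complement C1 inhibitor gene, was lower (-0.99 ± 0.15). With Serpine2 these were the calls of 8 tested serpins, where 2.55% of all genes were called. In the Myh11 split Serpine2 was lower (-0.85 ± 0.09) and Serpinb6b higher (1.21 ± 0.30), of 9 tested, where 3.1% of all genes were called. Against epithelial cells 7 of 15 tested other serpins were higher in mural cells and 5 lower, where 42.5% of all genes were called in either direction. Against endothelial cells 6 of 11 were higher and none was lower, where 18.8% of all genes were called.

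Proteases that the Serpina1 or Serpina3n products are known to inhibit were mostly too low to test. Of 15 listed genes, 7 were tested against fibroblasts, and by the same edgeR test Adamts4 (2.34 ± 0.23) and Plat, the tissue plasminogen activator gene (1.54 ± 0.44), were higher in mural cells and none was lower. Of 20 other secreted protease inhibitors, 16 were tested, and 8 were lower in mural cells and none higher. They included Slpi (-4.68), an inhibitor of neutrophil elastase like alpha-1-antitrypsin, A2m (-4.64), Pi16 (-4.48) and Timp1 (-1.73). The median of that list was -0.995 against -0.07 over all genes. Of 14 genes for serpin clearance and secretion, all were tested and 2 were called, a share near the 17.1% of all genes: the clearance receptor gene Lrp1 (-1.32) and Mcfd2 (-0.94) were lower in mural cells. Of 19 tested acute phase and response genes, 5 were lower, among them Saa3 (-4.98) and C3 (-4.28), and Il6st was higher (1.31). The share called over all genes was again 17.1%.

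Across 15 sums of a tumour and a cell group, the gene whose level was most like the Serpina1 sum was H2-M9, a class Ib histocompatibility gene, with a Pearson r of 0.91 on the log2(CPM + 1) scale. Its level was 59.2, 67.7 and 246 CPM in mural cells and at most 2.13 CPM in fibroblasts or epithelial cells. The next were Them6, Psmd8, Limd1 and Nbeal1, with r of 0.89 to 0.90. For Serpina3n, Colq (r = 0.90), 6030408B16Rik, Dpep1 and Cpz were among the 5 most alike. Dpep1 was at 93.4, 9.26 and 262 CPM in fibroblasts of tumours 1, 2 and 3, lowest in tumour 2 as Serpina3n was. The points share tumours, libraries and depth, and 14519 and 14520 genes were ranked, so these values are a description with no test.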

How the data were processed

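Cells of 3 tumours were profiled with droplet 3' RNA sequencing. The deposited matrix holds UMI counts per gene and barcode for all tumours, and per the labels the barcode suffix gives the tumour. Per the submitters' processing notes Cell Ranger 2.1.1 and Seurat 3.0 were used. The sources used here give neither their settings, nor the genome build, nor the rule for reads that fit several genes. A second deposited table holds the authors' mean UMI per cluster, log2 fold changes and adjusted p-values, described in the closing section.

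Barcodes with under 500 genes or over 20% mitochondrial UMIs were left out, as were 74, 94 and 144 doublets marked by Scrublet (scanpy 1.11.5), which left 5728, 5978 and 7284 cells. Gates needed at least 1 UMI of each gene. Cells of the mural gate stayed mural, and other cells in more than 1 gate were left out. Counts were summed per tumour and gate, with at least 20 cells per sum. In the Mmp9 split, with 30, 18 and 9 cells with Mmp9, a minimum of 5 cells was chosen after the cell numbers had been seen. Sums were fitted with edgeR 4.0.16 (R 4.3.3; TMM, filterByExpr, quasi-likelihood test, tumour as a block, Benjamini-Hochberg threshold 0.05), with the 10 gate genes left out. The pairing comes from the design, since both sums of a pair are cells of 1 tumour. DESeq2 1.42.0 was an alternative. The script was tested on simulated data. CPM is a gene's share of the UMIs of a sum, scaled to 1000000. A 3' UMI count does not grow with transcript length, so levels of genes were compared as they stand. Intervals are exact (95%, Clopper-Pearson for shares) and, like the floor of 3 UMIs, cover counting error only. In sums of cells, a change in the share of cells with a message and in its level per cell cannot be told apart.

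The genes and all lists were chosen with earlier results of these data known. The text names all 6 genes, the 5 highest and 5 lowest called genes of each split with 1 sign in all tumours, the called members of each list (up to 4) and the 5 genes most alike, among those with at least 50 UMIs. A few more list members are named where 5 or fewer were called. A gene that the last of these rules picked is not reported here.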

Additional observations from a re-analysis of the deposited data

How the results depend on the processing

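The Serpina1b difference in the Mmp9 split kept its direction and stayed past the threshold under every alternative run but the fit with no replicate block, where it was -3.13 (adjusted p = 0.637, edgeR, against 4.86e-13 to 0.00246 under the others by edgeR or DESeq2). Its log2 fold change was -3.80 to -2.25 with a tumour left out. All these fits use the same cells and a split that was part of how the genes were proposed, so they are not independent support. The near-0 change of Serpina1b in the Myh11 split was 0.47 in thinned cells and 0.19 when cells in more than 1 gate were left out. It was -0.42 to 0.23 with a tumour left out (0.05 without tumour 1, 0.23 without tumour 3). That of Serpina1d was 0.14 with cells in more than 1 gate left out and -0.19 to 0.069 with a tumour left out (0.069 without tumour 3). None of these passed the threshold.

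The number of genes called moved more. Of 128 in the Mmp9 split, 53 were called by DESeq2, 13 with no replicate block, 82 with doublets kept, 50 in thinned cells, 69 with at least 2 UMIs of Rgs5 and Higd1b, and 53 to 136 with a tumour left out, the lowest without tumour 1. Of 160 in the Myh11 split, 37 were called by DESeq2, 304 with no low-count filter, 9 with no replicate block, and 78 to 231 with a tumour left out, the lowest without tumour 2. The counts here are of calls and not of shared genes. Against fibroblasts 2088 genes became 750 with no replicate block and 1354 to 2129 with a tumour left out, the lowest without tumour 1. Against epithelial cells 5364 became 3871 to 5058 with a tumour left out. Against endothelial cells 1626 became 658 by DESeq2 and 778 with no replicate block. The cause of these moves was not tested.

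With no test, the Serpina3n difference from fibroblasts was -3.88 in thinned cells, -3.86 with at least 2 UMIs of the mural genes and -4.38 without cells in more than 1 gate, and that of Serpina1d was 8.59 without tumour 3. Leaving out a tumour was not possible against endothelial cells, where 1 pair would remain, and with 20 cells per sum the Mmp9 split leaves 1 tumour and no test. Tumour 1 gave 35 Serpina1 UMIs in mural cells, which limits every statement on that tumour, and 3 tumours limit all the rest.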

Other observations

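In the authors' deposited table, which compares each of 19 clusters of cells with the rest, Serpina1b and Serpina1d were highest in clusters 15 and 12. In the authors' deposited table cluster 15 had a mean of 4.11 UMIs of Serpina1b per cell (log2 fold change 6.95) and 1.42 of Serpina1d (7.56). The authors' deposited table gave cluster 12 a mean of 0.929 UMIs of Serpina1b (4.11) and 0.226 of Serpina1d (3.80). Rgs5 was at 37.1 UMIs in cluster 15 and 30.2 UMIs in cluster 12 of the authors' deposited table, so both held the mural genes. Mmp9 was at 0.582 UMIs in cluster 15 and 1.78 UMIs in cluster 12 of the authors' deposited table, and Myh11 at 1.34 and 1.15 UMIs. Serpina3n had negative log2 fold changes in both, -2.17 and -3.60 in the authors' deposited table, neither with an adjusted p under 0.05 there. The highest mean of Serpina3n in the authors' deposited table was 4.27 UMIs, in cluster 11. The table comes from the same cells and is not a replicate of the values above, and its clusters are not the gates used here.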
